A study of Homo sapiens with 10 samples.

Results

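Aminoacyl-tRNA synthetases charge each tRNA with its amino acid, the step that supplies the ribosome with substrate. The 10 cytosolic synthetase genes AARS, WARS, GARS, IARS, LARS, MARS, NARS, SARS, EPRS and YARS were followed here through every table of the series, which together name 10942 genes. They were chosen by name and not by a cutoff on a measured value. Earlier results of these data were known when they were chosen. All 10 carried m6A windows in both m6A-seq replicates, 7 were in the table of footprints and mRNA, and 6 were in the YTHDF1 RIP list. GARS, IARS and LARS had no row in the table of footprints and mRNA and WARS, GARS, EPRS and YARS none in the RIP list.

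The series asked which mRNAs depend on YTHDF1 for translation in HCT116, an established human colorectal cancer cell line. YTHDF1 is a reader protein of the cytoplasm, which recognises mRNA carrying N6-methyladenosine (m6A). Ribosome profiling, which sequences the fragments of mRNA that ribosomes protect, covered 1 control library (a hairpin against GFP, per the file headers) and 2 YTHDF1 knockdown libraries whose titles name shY1-1 and shY1-2. These are called knockdown 1 and knockdown 2, and mRNA-seq covered the same 3 conditions. The genotype label gives shY1 for both, so whether the hairpins differ cannot be read from the labels, which also name no separate cultures. RNA immunoprecipitated with a YTHDF1 antibody (RIP, 1 library) and its whole-lysate input (1 library) came from cells labelled control, as did the m6A-seq replicates (2 libraries). All samples carry the label of a cycloheximide treatment, an inhibitor of elongation, at 100 ug/ml for 3 min.

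Synthetases fall into a structural class I, whose members here include WARS, YARS, IARS, LARS and MARS, and a class II with AARS, GARS, NARS and SARS. EPRS is a bifunctional enzyme that joins a glutamyl-tRNA and a prolyl-tRNA synthetase in 1 chain. EPRS, IARS, LARS and MARS sit in the cytosolic multi-synthetase complex, while the others act outside it. Many synthetase genes are known targets of ATF4, the transcription factor of the amino acid response, and WARS is also known as an interferon-induced gene.

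YTHDF1 itself had mRNA values of 27.4 without knockdown, 8.62 in knockdown 1 and 7.81 in knockdown 2, and footprint values of 61.4, 17.0 and 19.9. Neither change passed in limma over all 6782 genes tested (adjusted p = 1.00 for mRNA and 0.552 for footprints). Of 9 epithelial marker genes 6 were in the table, with summed mRNA values of 3403 to 5499 and none at 0. The lowest epithelial marker had mRNA values of 1.78 to 3.07. The fibroblast markers (3 of 8 in the table) summed to between 6.35 and 7.50 in mRNA. Their footprints summed to 13.6 without knockdown, 17.0 in knockdown 1 and 9.08 in knockdown 2, and those of the epithelial markers to 2339, 3149 and 1808. Of 6 blood markers CD68 alone was listed, with footprint values of 9485 to 15090 and mRNA values of 4.98 to 19.9. Values of the table are a relative abundance whose unit the headers do not name, so the depth behind each value is unknown. In such bulk libraries fewer cells of a kind and less RNA per cell cannot be told apart.

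Promoter letters are shown first because ATF4 binds a C/EBP-ATF composite element, written here as the motif TGATGNAAN (N for any base). RefSeq promoters on the GRCh38.p14 build, reaching from 250 bases before to 50 bases after an annotated start, were found for 8 of the 10 genes (11 promoters), not for LARS and YARS. The motif was searched on both strands and stood in 5 of these 11 promoters, those of AARS, GARS, IARS, MARS and NARS, against 3.61% of all 35116 promoters. Each match is given in the direction of its gene, with 10 bases on either side in lower case and the motif in capitals, which read in reverse complement in AARS, GARS, IARS and MARS, where the motif lies on the other strand.
AARS (chr16:70289676-70289704, minus strand): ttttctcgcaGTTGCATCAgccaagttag
GARS (chr7:30594834-30594862, plus strand): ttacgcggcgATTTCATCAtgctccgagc
IARS (chr9:92293693-92293721, minus strand): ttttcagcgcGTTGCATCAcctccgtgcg
MARS (chr12:57488053-57488081, plus strand): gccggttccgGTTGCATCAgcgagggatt
NARS (chr18:57621804-57621832, minus strand): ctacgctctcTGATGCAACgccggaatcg
AARS, IARS, MARS and NARS shared the same 9 letters, TGATGCAAC, present in 0.216% of all promoters (76), a string that was picked out after the matches were seen. The motif began 188 bases before the start in AARS, 34 before it in GARS, 14 before it in IARS, 5 before it in MARS and 14 after it in NARS. The GARS match lies in only 1 of its listed promoters. No match was found in the listed promoters of WARS, SARS and EPRS, which says only that these letters are not in those windows. Of the other cytosolic synthetase genes, 2 of 8 with a promoter in the table held it (CARS and TARS), and of the mitochondrial ones 1 of 15 (YARS2).

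WARS, the tryptophanyl-tRNA synthetase (chromosome 14, 100333790 to 100376327), stood apart from the other members in ribosome footprints. Its footprint value was 609 without knockdown, 132 in knockdown 1 and 111 in knockdown 2, giving a knockdown mean of 122 ± 15.2 (SD, n = 2) that is 5.01-fold lower than the control. In mRNA it stood at 70.7 without knockdown, 54.0 in knockdown 1 and 76.5 in knockdown 2. Both knockdown libraries thus lay far below the control in footprints, while in mRNA they lay on either side of it. The log2 change was -2.32 ± 0.35 (SE) in footprints and -0.14 ± 0.35 in mRNA, on the log2(value + 1) scale used for all changes below.

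The footprint change of WARS did not pass the threshold in limma over all genes (adjusted p = 0.344, unadjusted p = 0.000400). By p it ranked 7 of 6782 genes, and counted from the lowest change 55. Over the alternative settings its limma adjusted p ranged from 0.0107 to 0.425. The lowest came with the knockdown number (shY1-1 or shY1-2) as a block, a fit with fewer residual degrees of freedom. Whether that number stands for a hairpin or a repeat cannot be read from the labels. Across all genes the median footprint change was -0.28, and WARS lay -2.04 from that median. Each of these values rests on 1 control library.

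The remaining 6 members lay closer to the control in footprints. AARS, the alanyl-tRNA synthetase (chromosome 16, 70252298 to 70289506), had footprint values of 48.3 without knockdown, 37.9 in knockdown 1 and 44.3 in knockdown 2. YARS, the tyrosyl-tRNA synthetase (chromosome 1, 32775239 to 32817358), had 264, 223 and 257 in the same order. For both genes the control was the highest library, by a small margin in YARS.

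NARS, the asparaginyl-tRNA synthetase (chromosome 18, 57600656 to 57621836), had footprint values of 319.5 without knockdown, 376 in knockdown 1 and 271 in knockdown 2. SARS, the seryl-tRNA synthetase (chromosome 1, 109213893 to 109238182), had 131, 196 and 103. In these 2 genes, and in MARS and EPRS, knockdown 1 was above the control and knockdown 2 below it. MARS, the methionyl-tRNA synthetase (chromosome 12, 57488068 to 57516652), had footprint values of 713, 769.8 and 624, and EPRS (chromosome 1, 219968600 to 220046505) had 171, 192 and 109.5.

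Of the 7 members, 0 passed in footprints in limma at an adjusted p of 0.05, where 0.0295% of all genes passed, and 1 (WARS) had an unadjusted p under 0.05, against 8.85% of all genes in either direction and 6.99% in its direction, lower. AARS, WARS and YARS had both knockdown libraries below the control (3 of 7, against 51.2% of all genes), and none had both above it (17.5% of all genes). The other 4 had the knockdown libraries on opposite sides (31.4% of all genes). The median member change was -0.14, compared with -0.28 over all genes. Relative to that median, members other than WARS lay between 0.05 (AARS) and 0.40 (SARS). The SD of the 7 footprint changes was 0.915 in knockdown 1 and 0.848 in knockdown 2, compared with 0.946 and 0.709 over all genes. Without WARS, left out after its values were seen, the SD of the members was 0.337 and 0.211. Over the 1683 genes at or above the lowest member's mean level it was 0.661 and 0.514. After median centring of the libraries AARS, MARS, NARS, EPRS and YARS turned to positive footprint changes (0.054 to 0.29). SARS, positive before, stood at 0.41 and WARS at -2.03.

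In mRNA the 2 knockdown libraries gave different pictures. In knockdown 2 all 7 members stood slightly above the control, and their log2 changes lay between 0.11 (WARS) and 0.26 (AARS). The SD of those changes over the members was 0.0517, compared with 0.362 over all genes and 0.282 over the 1683 genes at or above the lowest member's mean level. Of all genes 54.0% had a positive change in that library. The members therefore lay closely together there. The interquartile range was -0.15 to 0.20 over all genes, with AARS and EPRS above it, and -0.097 to 0.13 over those 1683 genes, with AARS, EPRS, MARS, YARS and NARS above it.

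In knockdown 1 the same genes spread out, from 0.600 times the control in AARS to 2.24 times in EPRS. EPRS had mRNA values of 75.4 without knockdown, 169 in knockdown 1 and 86.9 in knockdown 2. SARS had 44.2, 68.9 and 48.1, and NARS had 44.2, 52.9 and 48.8. In these 3 genes both knockdown libraries were above the control, and in EPRS and SARS knockdown 1 was much the higher of the pair.

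AARS had mRNA values of 54.1 without knockdown, 32.5 in knockdown 1 and 65.0 in knockdown 2. YARS had 58.3, 45.6 and 65.4, and MARS had 96.0, 84.9 and 108. These 3, like WARS, were below the control in knockdown 1 and above it in knockdown 2. The SD of the 7 changes in knockdown 1 was 0.657, compared with 0.555 over all genes and 0.460 over the 1683 genes named above. The members were thus more spread there than either set.

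**Figure D1:**
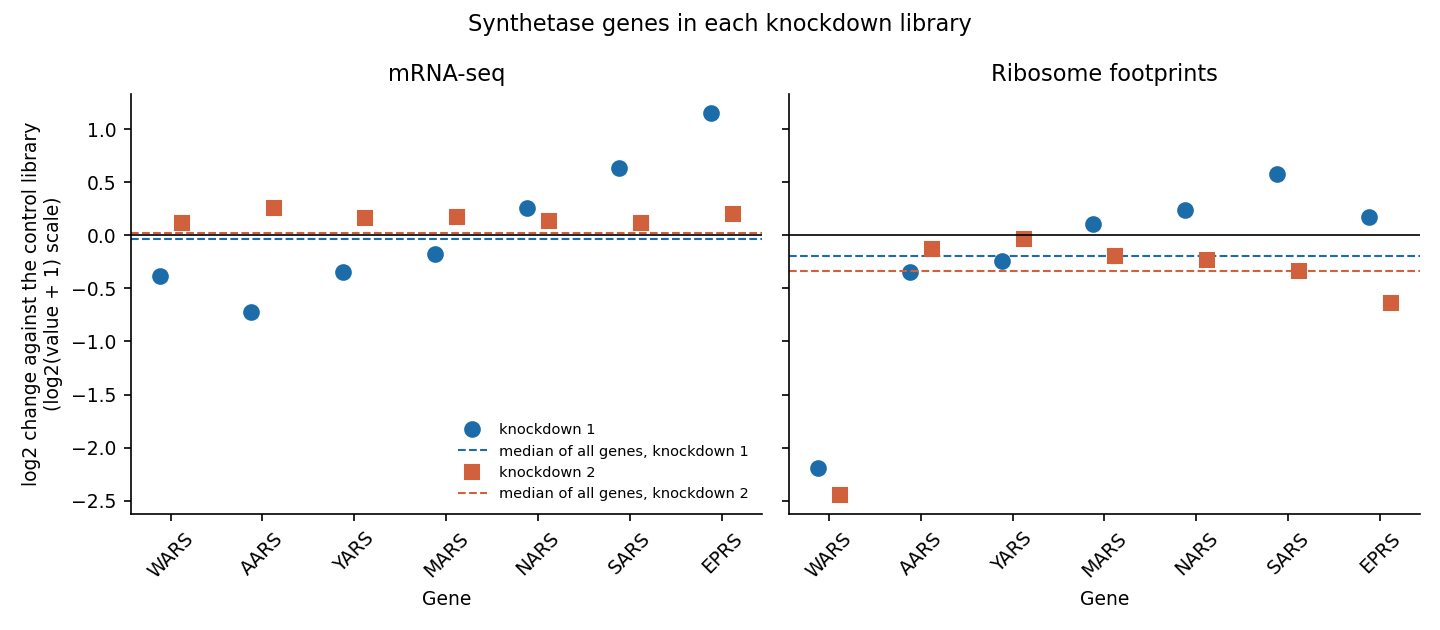
Log2 change of each synthetase gene against the control library (vertical axis, log2(value + 1) scale) in mRNA-seq (left) and ribosome footprints (right). Circles are knockdown 1, squares knockdown 2 and dashed lines the median of all genes in that library. WARS lies at -2.19 and -2.45 in footprints, and the squares in mRNA all lie between 0.11 and 0.26.

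No member passed in mRNA in limma (0 of 7, with 0% of all genes), and none had an unadjusted p under 0.05 (0.472% of all genes). The smallest unadjusted p belonged to EPRS, with a change of 0.68 ± 0.51 (SE, limma unadjusted p = 0.231 and adjusted p = 1.00), which was 0.20 without knockdown library 1 and 1.16 without knockdown library 2. NARS, SARS and EPRS had both knockdown libraries above the control (3 of 7, against 30.9% of all genes), and 0 members had both below it (29.9% of all genes). The other 4 had them on opposite sides (39.2% of all genes). The median member change was -0.00, beside -0.01 over all genes. In knockdown 1 the carriers of the promoter motif printed above, AARS, MARS and NARS, stood at -0.72, -0.18 and 0.25, and WARS, SARS and EPRS, with no match, at -0.38, 0.63 and 1.16.

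Footprints and mRNA were next set side by side within each label. In knockdown 1, 6 of 7 members lay on the same side of the control in both assays (63.4% of all genes did), and MARS was the exception, at -0.18 in mRNA and 0.11 in footprints. In knockdown 2 all 7 members were above the control in mRNA and below it in footprints, a combination found in 38.9% of all genes. The median footprint change in knockdown 2 was -0.24 over the members and -0.34 over all genes, so the median member fell less than the median gene. In that library footprint values summed over the table to 1041090 and to 1227324 in the control, and 27.2% of all genes had a positive footprint change. The sum in knockdown 1 was lower still, at 938928, and there 4 of 7 members and 39.1% of all genes had a positive footprint change. The part of these sums in the pattern was not tested.

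The ratio of the footprint value to the mRNA value, a measure of translational efficiency, differed widely among the members in the control library. WARS had a ratio of 8.61, MARS 7.43 and NARS 7.23, at the 91.3th, 88.6th and 88.1th percentiles of all genes. YARS had 4.53, SARS 2.96 and EPRS 2.27, and AARS had the lowest, 0.893. The median of all genes was 2.32. The order therefore ran from genes high in the table to AARS, under the lower quartile of 1.10, each from a single pair of libraries.

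MARS, NARS, YARS and SARS kept their order after knockdown. MARS had ratios of 9.07 in knockdown 1 and 5.76 in knockdown 2, NARS 7.12 and 5.56, YARS 4.90 and 3.94, and SARS 2.85 and 2.15. WARS had 2.45 and 1.45, at the 57.9th and 43.3th percentiles. It thus went from the highest ratio of the 7 to the fifth of them in both knockdown pairs. EPRS had 1.14 and 1.26, compared with 2.27 in the control, and in knockdown 1 this lower ratio came with the higher mRNA value given above and a footprint value near that of the control. AARS had 1.17 and 0.681. The labels do not state that footprint and mRNA libraries of the same number came from 1 culture.

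**Figure D2:**
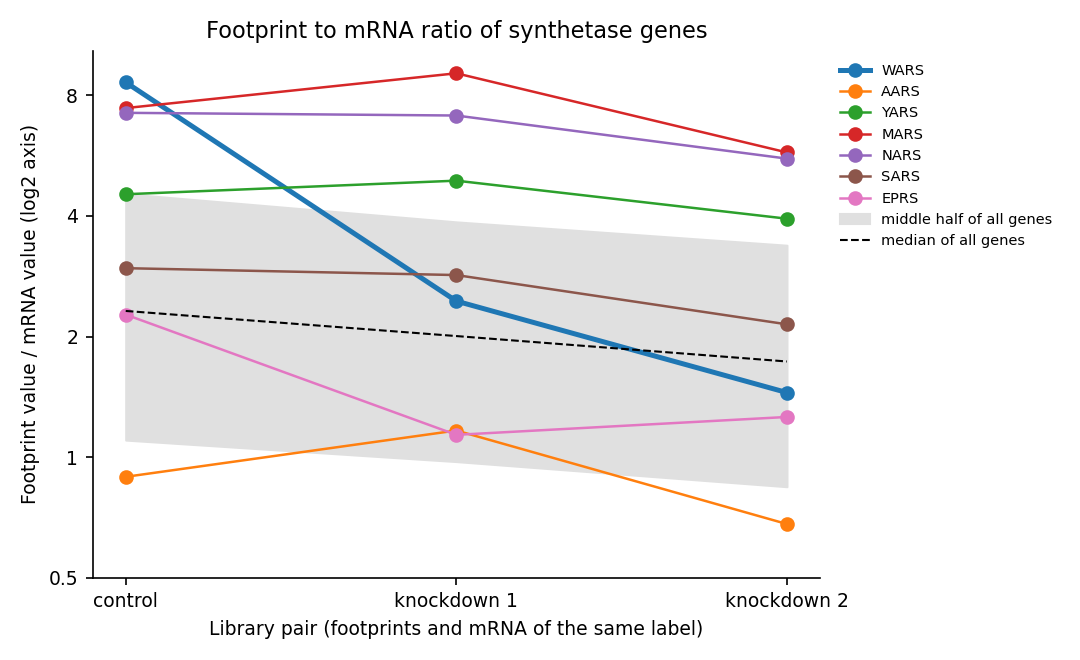
Footprint value divided by mRNA value (vertical axis, log2 axis) for 7 synthetase genes in the control, knockdown 1 and knockdown 2. The grey band spans the interquartile range of all genes and the dashed line is their median. WARS goes from 8.61 to 2.45 and 1.45, MARS and NARS stay above the band in each pair, and AARS lies below the band in the control and knockdown 2.

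Tested as the interaction of assay and knockdown in the same limma fit, 0 of 7 members passed, as did 0% of all genes, and 1 (WARS) had an unadjusted p under 0.05, against 2.73% of all genes in either direction and 2.14% lower. WARS had an efficiency change of -2.19 ± 0.49 (SE, limma adjusted p = 0.996 and unadjusted p = 0.00364) and ranked 9 of 6782 by p. EPRS stood at -0.91 ± 0.73 (limma unadjusted p = 0.252), and at -0.44 without mRNA library 1 of the knockdown and -1.39 without mRNA library 2. Without footprint library 1 or 2 it stood at -1.32 or -0.51. The other 5 lay between -0.25 (SARS) and -0.00 (AARS), close to the median of all genes, -0.27. With the libraries median centred, those 5 had positive values of 0.026 to 0.28. WARS, NARS, SARS and EPRS had a lower ratio than the control in both pairs (4 of 7, against 52% of all genes). In 0 of 7 was it higher in both (18.7% of all genes), and AARS, MARS and YARS had the pairs on opposite sides (29.3% of all genes).

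The other synthetase genes were read the same way. Of 11 other cytosolic ones 6 could be tested, and 0 passed in footprints or in mRNA. The smallest p in footprints belonged to KARS, the lysyl-tRNA synthetase of the multi-synthetase complex, with 428 without knockdown, 247 in knockdown 1 and 272 in knockdown 2 (limma unadjusted p = 0.0588). The median footprint change of these 6 was -0.14, equal to that of the members at this precision. In single libraries their footprint changes ran from -1.27 in knockdown 1 to 2.56 in knockdown 2, both in the same gene. The equal medians therefore say nothing of the spread. Of 18 mitochondrial synthetase genes 9 could be tested and 0 passed, with a median of -0.28 in footprints and 0.06 in mRNA. CARS2, the mitochondrial cysteinyl-tRNA synthetase, had footprint values of 111, 47.5 and 55.1 (limma unadjusted p = 0.0237). IARS2, the mitochondrial isoleucyl-tRNA synthetase, had footprint values of 70.5, 14.4 and 39.9 and a change of -1.51, which was -0.80 without knockdown library 1 and -2.22 without knockdown library 2. Of 14 genes that process or modify tRNA 9 were tested and 0 passed in footprints or in mRNA, with a median footprint change of -0.04.

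ATF4 and genes listed as its targets were the nearest regulatory group. Of 34 listed genes 23 could be tested, and 0 passed in footprints or in mRNA, with 4 at an unadjusted p under 0.05 in footprints (8.85% of all genes). Their median change was -0.19 in footprints and -0.03 in mRNA, with 6 genes above the control in both footprint libraries (17.5% of all genes) and 9 below in both (51.2% of all genes). The genes named next were chosen by their small p. ATF4 had footprint values of 720.4 without knockdown, 213 in knockdown 1 and 131 in knockdown 2, and mRNA values of 181, 168 and 196. Its footprint change was -2.10 ± 0.37 (SE, limma adjusted p = 0.445). As in WARS, both footprint libraries were far below the control while the mRNA libraries lay on either side of it. SLC1A5, an amino acid transporter, had footprint values of 153, 54.3 and 69.2, and ALDH18A1, an enzyme of proline synthesis, had 89.2, 37.3 and 46.9.

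Among 2219 genes of higher level outside all lists, those most like the members' median profile were sought by the Pearson correlation of log2 values centred within each assay over 6 libraries. They were XRCC6 (r = 0.989), NDUFS7 (0.980), VAC14 (0.978), KDELR1 (0.977) and USP5 (0.975). The members themselves correlated with that profile at 0.973 in MARS, and at between 0.0158 (EPRS) and 0.528 (AARS) in the others. The profile is the median of these same genes, and in knockdown 1 MARS is that median in both assays, so its value is largely fixed by that choice. These are descriptions over few libraries that share a control per assay.

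In the YTHDF1 RIP list, which holds genes with a ratio of immunoprecipitate to input FPKM of at least 1.5, AARS had the highest ratio of the 6 members listed. Its FPKM was 151 in the immunoprecipitate and 43.5 in the input, a deposited ratio of 3.46 at the 82.7th percentile of the 3939 listed genes. Among the 737 listed genes with at least the input FPKM of LARS, the lowest of the 6, it lay at the 92.9th percentile. AARS was thus high in a list where ratios are lower among abundant RNAs: the median ratio was 2.28 over the list and 2.01 over those 737 genes.

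IARS, the isoleucyl-tRNA synthetase (chromosome 9, 92210207 to 92293697), had an FPKM of 46.2 over 17.8 and a ratio of 2.59. LARS, the leucyl-tRNA synthetase (chromosome 5, 146113034 to 146182650), had 37.6 over 15.2 and a ratio of 2.47. These 2 enzymes of the multi-synthetase complex lay near the middle of the list, and MARS, of the same complex, near its lower end at 1.76 (51.1 over 29.1). SARS, the most abundant of the 6 in the input, had 149 over 85.8 and a ratio of 1.74, and NARS had 61.8 over 38.8 and a ratio of 1.59. At a minimum ratio of 2, AARS, IARS and LARS would remain, 3 of 6, as would 64.0% of the listed genes.

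Of the 7 members in the table of footprints and mRNA, 4 were in the RIP list, compared with 35.3% of its genes. Of the 10 with m6A windows in both replicates 6 were, compared with 41.9% of such genes. RIP has 1 library and 1 input, so these ratios have no replicate error. The listed AARS, MARS, NARS and SARS had efficiency changes of -0.00, -0.04, -0.20 and -0.25, and WARS, EPRS and YARS, which are not in the list, had -2.19, -0.91 and -0.05. The largest difference in footprints among the members was thus in a gene outside the RIP list. For genes outside it no ratio is given here.

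**Figure D3:**
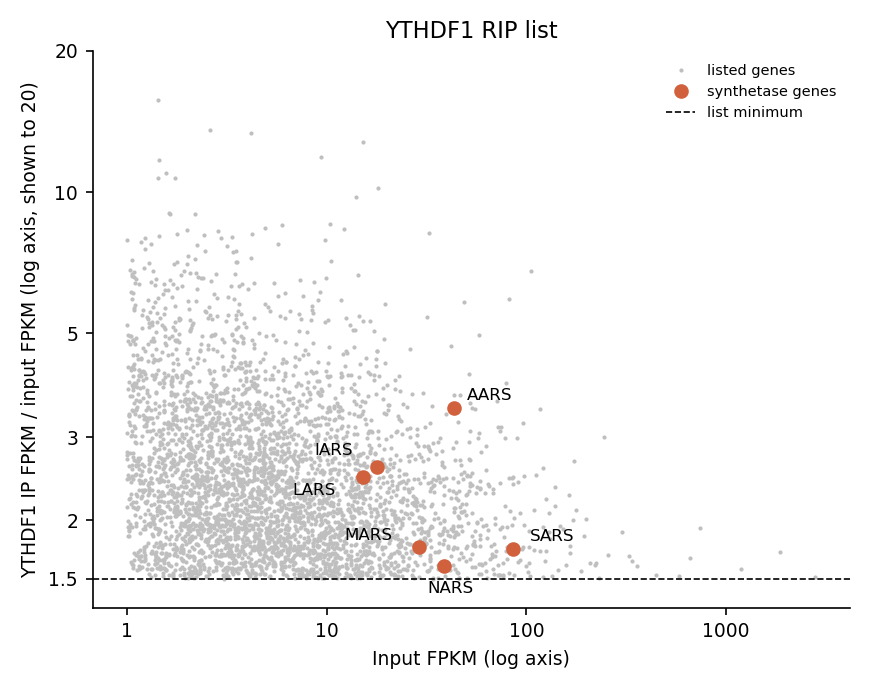
Deposited ratio of YTHDF1 immunoprecipitate to input FPKM (vertical axis, log axis, cut at 20, above which 14 genes lie) against input FPKM (horizontal axis, log axis) for the listed genes (grey) and 6 synthetase genes (orange). The dashed line is the list minimum of 1.5. AARS lies at 3.46 and the other 5 between 1.59 and 2.59.

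m6A-seq gave windows on all 10 genes in both replicates, as it did for 71.7% of the genes in the table of footprints and mRNA. The members carried 47 windows in replicate 1 and 43 in replicate 2. Of these, 42 of the first (89.4%) overlapped a window of the second by at least 1 base, and 38 of the second (88.4%) one of the first. Over all windows the shares were 74.5% and 72.6%. The ratio of peak over input, as the authors deposited it, was within 1.5-fold between replicates for 40 of the 42. The log2 ratio between replicates had an SD of 0.298 over these 42 and 0.512 over the 17995 matched windows of all genes. Where a window had the same bounds in both replicates (17 windows of the members), the input signal was identical, so the replicates share their input and differ only in the immunoprecipitate.

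The number of windows per gene ran from 2 to 9, where the median gene had 2. EPRS had 9 in replicate 1 and 6 in replicate 2, and IARS had 8 and 8, above the 90th percentile of genes in each. NARS had 7 and 4. SARS and MARS had 3 in each replicate, AARS 3 and 4, LARS 2 and 4, GARS 4 and 3, and WARS and YARS 4 in each. Windows with no counterpart in the other replicate numbered 5 in each, with ratios between 3.04 and 4.87, and lay in AARS, IARS, LARS, NARS and EPRS.

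The strongest windows were those of NARS, LARS and EPRS. Positions below are bases along the transcript used by the authors, which the files do not name. NARS had a window at 2925 to 3050 with a ratio of 29.0 in replicate 1 and 25.1 in replicate 2, at the 96.7th and 96.0th percentiles of all windows. LARS had one at 3450 to 3575 in replicate 1 with a ratio of 21.0, and at 3475 to 3525 in replicate 2 with 17.9. EPRS had 2 strong neighbours, at 2275 to 2450 (20.2 and 17.7) and at 2525 to 2625 (20.5 and 21.9). In 9 of the 10 genes the highest windows of the replicates overlapped. IARS was the exception, with 7.25 at 1500 to 1600 in replicate 1 and 6.84 at 3950 to 4100 in replicate 2.

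SARS followed with a window at 1575 to 1675 (11.4 and 11.5) and YARS with one at 2675 to 2750 (10.96 and 10.98). The highest windows of WARS (9.57 and 7.16, starting at 775), AARS (9.07 and 9.29, at 2550 to 2750), MARS (6.85 and 9.34, at 1050 to 1200) and GARS (8.06 and 8.15, at 1200 to 1300) were lower. GARS, the glycyl-tRNA synthetase (chromosome 7, 30594735 to 30634033), is one of the few that serve cytosol and mitochondria from 1 gene. Windows above a ratio of 10 numbered 7 of 47 and 6 of 43, compared with 20.5% and 19.8% of all windows. The median ratio of the members' windows was 5.24 and 5.86, and of all windows 5.63 and 5.53.

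**Figure D4:**
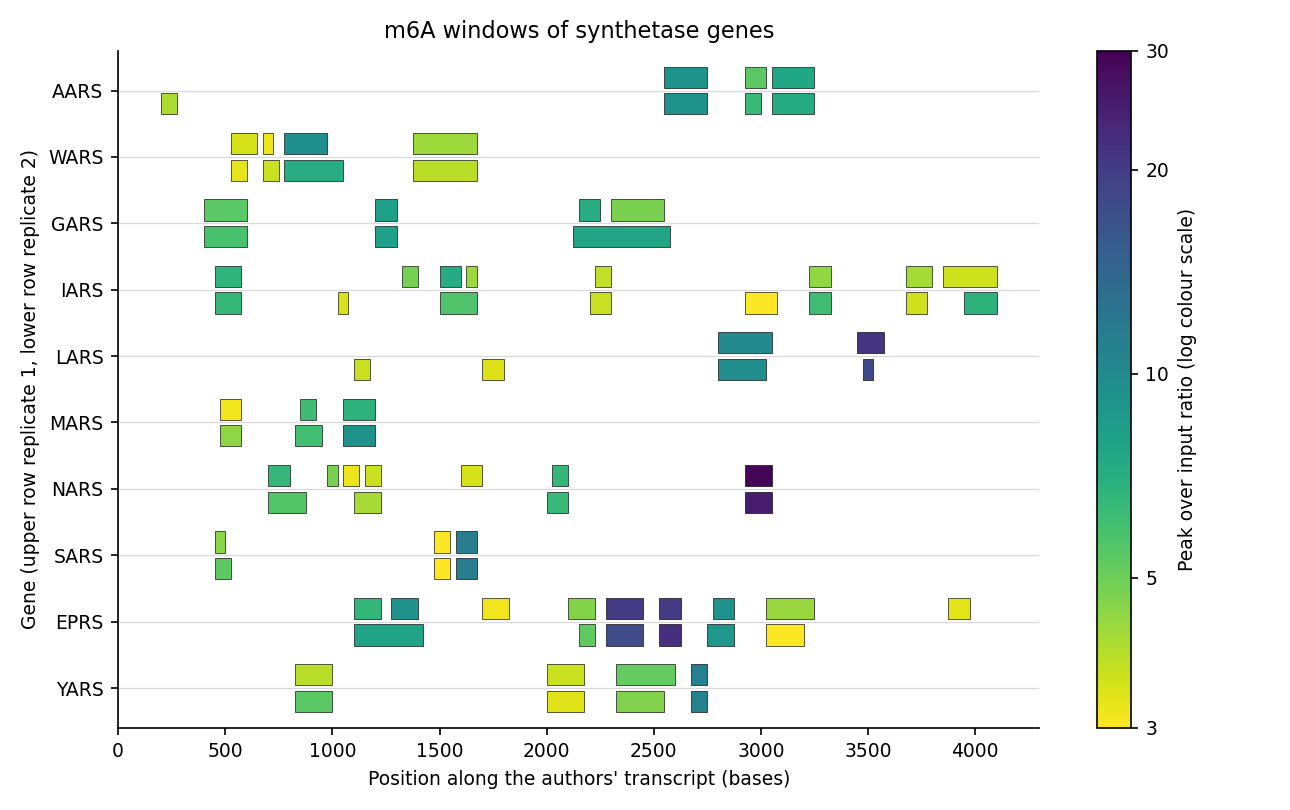
m6A windows of the 10 synthetase genes by position along the transcript used by the authors (horizontal axis, bases), with replicate 1 in the upper and replicate 2 in the lower row of each gene. Colour gives the peak over input ratio on a log scale. The darkest windows are those of NARS near 3000 bases (29.0 and 25.1), LARS (21.0 and 17.9) and the EPRS pair, and most windows recur in both rows.

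The windows with the highest ratios were also those with little input. In replicate 1 the top window of all 10 genes had the lowest input signal per base of any window of its gene, and in replicate 2 that held for 9 of 10, IARS being the exception. Over all genes with at least 2 windows the shares were 74.5% and 71.6%. In NARS the top window had 0.233 per base in either replicate and its other windows a median of 1.08 in replicate 1. In LARS the values were 0.184 and 0.902, and in EPRS 0.188 and 0.941. The input is the denominator of the ratio, and its part in the order of the windows was not tested. These signals come with no stated scale, so they are compared within a gene only.

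**Figure D5:**
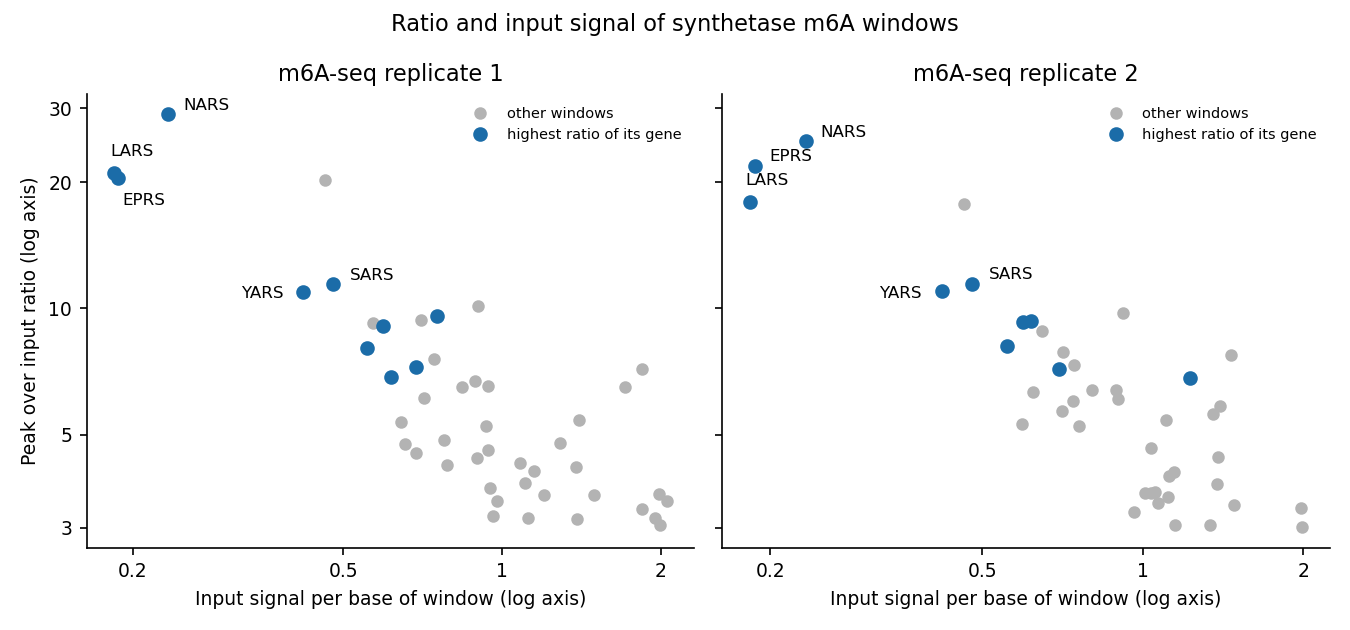
Peak over input ratio (vertical axis, log axis) against input signal per base of the window (horizontal axis, log axis) for every synthetase window in replicate 1 (left) and replicate 2 (right). Blue points are the highest window of each gene and grey points the others. The highest windows of NARS, LARS and EPRS lie at the upper left, with ratios above 17 and input under 0.3 per base. The input has no stated scale, so the shared axis serves comparison within a gene only.

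Each window comes with an assigned m6A position and the 5 letters around it, which follow the pattern of the m6A consensus whose first 4 letters were GGAC in some windows, AGAC in others, GAAC in others again and AAAC in the rest. Among the members' windows GAAC was the most frequent, with 22 of 47 in replicate 1 (46.8%) and 21 of 43 in replicate 2 (48.8%), compared with 23.3% and 23.2% of all windows. GGAC, the most frequent in all windows at 30.7% and 29.5%, made up 19.1% and 16.3% of the members' windows. Counting each assigned position once, 25 of 55 were GAAC, and each of the other cores had 10. Windows of 1 gene share a transcript and replicates share the position call, so these shares are given as a description.

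The letters assigned to the strongest windows were mixed. NARS had GAACA at position 3081, LARS AAACT at 3506 and EPRS AAACA at 2613, the same in both replicates. AARS had GGACC at 2630, GARS GGACT at 1255, MARS GGACT at 1109, WARS AGACT at 912, YARS AGACC at 2691 and SARS GAACA at 1620. The assigned position of NARS lay past the end of its window, as it did outside the window for 9 of 47 and 10 of 43 windows of the members and for 19.1% of all windows in each replicate. Both replicates named the same position in 34 cases.

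Across the assays the members did not move as 1 group. Their mRNA values lay closely together in knockdown 2 and apart in knockdown 1, and a large footprint difference was seen in WARS alone among the 7. The SD of all 7 footprint changes was 0.915 in knockdown 1 and 0.848 in knockdown 2, compared with 0.946 and 0.709 over all genes. Over the 1683 genes at or above the lowest member's mean level it was 0.661 and 0.514. With WARS left out after its values were seen, the SD of the other 6 was 0.337 and 0.211. No extreme gene was left out of either larger set, so that comparison is not on equal terms. The gene with the highest RIP ratio (AARS) and those with the highest m6A ratios (NARS, LARS and EPRS) were different ones. AARS and NARS had footprint changes of -0.23 and -0.00, EPRS had -0.23, and LARS had no footprint value here. EPRS, with the most m6A windows in replicate 1, was not in the RIP list, and IARS, with the next most, was in it at 2.59.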

How the data were processed

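Ribosome footprints and mRNA were given by the authors as 1 deposited signal per gene and library, a relative abundance with no unit in the headers. RIP values are FPKM with a ratio of immunoprecipitate over input, per the file headers. m6A windows carry signals and, as deposited, a peak over input ratio that is nowhere below 3. STAR and GRCh38 are named in the submitters' processing notes, and the sources used here name no peak caller or further step. Every control value in the expression table is at least 0.5, so it was filtered on the control.

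Analyses used log2(value + 1). After 12 rows with damaged names and 132 genes with a mean below 1 were left out, 6782 genes were fitted with limma 3.58.1 (R 4.3.3, trend), with 1 mean per assay and condition, 2 residual degrees of freedom, 2-sided tests and Benjamini-Hochberg adjustment over all genes at 0.05. Each assay has 1 control, taken to vary as much as the knockdown libraries do. Each gene has 1 estimate of spread, shared by footprints and mRNA and taken from the knockdown libraries of both assays. The p-values measure that spread, which may be technical. For WARS in footprints the SE was 0.35 in this shared fit and 0.41 with each assay fitted alone. Shares of genes under a p threshold are therefore not on equal terms between the 2 assays. The code of the fit was tried on simulated data whose spread between libraries was set below that of these data. That trial says nothing of the power or error rate here. Alternatives were the pseudocount, the filter, centring, quantile normalisation, a block for the knockdown number, separate fits and each knockdown library left out. For RIP and m6A they were other thresholds and overlaps. The block, the separate fits and the fits with a library left out have fewer residual degrees of freedom. The members and gene lists were chosen with earlier results of these data known. The text names all 10 members, YTHDF1, up to 3 genes per other list by smallest p, and the 5 genes most like the members' median profile. Some single-gene results under this rule are not reported here. Coordinates and promoters come from RefSeq on GRCh38.p14, where members are listed under newer symbols (AARS1 for AARS) and all 10 had coordinates.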

Additional observations from a re-analysis of the deposited data

How the results depend on the processing

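The direction of the WARS footprint and efficiency changes was kept under each alternative run, and the threshold was passed in 1 of them. No alternative could leave out the single control library of an assay. How far the WARS changes depend on that library was therefore not tested. With the knockdown number as a block, 1 member (WARS, limma adjusted p = 0.0107) passed in footprints, as did ATF4 among the other genes named (limma adjusted p = 0.0223). The block gave 30 genes in footprints, 2 in mRNA and 6 in efficiency, against 2, 0 and 0 without it. The block leaves fewer residual degrees of freedom than the main fit. It takes the difference between knockdown 1 and 2 to be the same in footprints and mRNA. The labels do not state that numbers pair cultures. The difference between knockdown 1 and 2 correlated at 0.37 across genes between the assays. Genes passing in footprints numbered 0 with a pseudocount of 0.5, with no filter, with median centring and with quantile normalisation. Leaving out 1 knockdown library at a time gave 2 to 80 genes in footprints (8 without ribosome library 1, 80 without ribosome library 2) and 0 to 1 in mRNA and in efficiency. The number of members with m6A windows in both replicates was 10 under each threshold and overlap tried. The median member change with 1 library left out was -0.24 to 0.11 in footprints. With median centring it was 0.15 in footprints and 0.083 in efficiency. Without WARS it moved by less than the spread between libraries. Of the members 3 stayed in the RIP list at a ratio of 2.

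Several small changes turned sign. In footprints, median centring gave 0.054 for AARS, 0.25 for MARS, 0.29 for NARS, 0.055 for EPRS and 0.15 for YARS, and quantile normalisation gave 0.036 for AARS, 0.20 for MARS, 0.21 for NARS and 0.055 for YARS. For MARS in mRNA they gave 0.0083 and 0.039. In efficiency, median centring gave 0.28 for AARS, 0.24 for MARS, 0.083 for NARS, 0.026 for SARS and 0.23 for YARS, and quantile normalisation gave 0.25 for AARS, 0.16 for MARS and 0.12 for YARS. With 1 library left out, footprint changes were -0.19 to 0.11 for MARS, -0.24 to 0.23 for NARS, -0.34 to 0.58 for SARS and -0.64 to 0.17 for EPRS. In mRNA they were -0.72 to 0.26 for AARS, -0.38 to 0.11 for WARS, -0.18 to 0.17 for MARS and -0.35 to 0.16 for YARS. In efficiency they were -0.49 to 0.48 for AARS, -0.21 to 0.13 for MARS, -0.43 to 0.039 for NARS, -0.71 to 0.21 for SARS and -0.30 to 0.21 for YARS. The cause was not tested. Depth is unknown, so no limit of detection is given.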
